A study of Mus musculus with 6 samples.

Results

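Interleukin receptors are built from chains that bind one cytokine and chains that several receptors share. The 10 chains considered here were listed by name, with earlier results of these data known, and the rule applied no cut on a measured value: Il7r, Il2ra, Il2rg, Il4ra, Il6ra, Il15ra, Il18r1, Il17rb, Il1rl1 and Il23r. A probe set was taken when the annotation of the array gave it exactly 1 gene and that gene was on the list. This gave 13 probe sets of 7 chains, out of 34945 probe sets of 18193 genes in all. No probe set in the annotation used here named Il2rg, Il1rl1 or Il23r, and these 3 were not analysed here.

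The measurements came from DN2 cells sorted from the thymus of fetal mice on the FVB background, with 3 Affymetrix arrays of E2A-deficient cells and 3 of wild-type cells. DN2 cells are early thymocytes without CD4 or CD8, at the stage of commitment to the T-cell lineage. E2A stands for the E proteins encoded by Tcf3, transcription factors that recognise short DNA motifs called E-boxes. The labels name no allele, fetal age, sort gate or pooling of animals, and no treatment. The question was which genes depend on E2A in these cells.

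IL-7 receptor signalling keeps early thymocytes alive, and its ligand comes from the thymic stroma. The alpha chain Il7r works with the common gamma chain Il2rg, which the receptors for IL-2, IL-4 and IL-15 also use. These receptors signal through JAK kinases and STAT factors. The receptors for IL-18 and IL-33 belong to the IL-1 family and signal through Myd88. Il17rb binds IL-25, Il1rl1 binds IL-33, and Il23r binds IL-23, and all of these are known from innate lymphoid and other cytokine-producing lymphocytes.

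Each array gave intensities with a median between 77.4 and 79.0, and a lowest value between 41.4 and 45.1. Tcf3 read 236, 229 and 281 on the E2A-deficient arrays and 477, 421 and 414 on the wild-type arrays (brightest probe set, limma adjusted p = 0.00864). The log2 ratio of the 5' to the 3' beta-actin control was -2.60, -2.65 and -2.74 on the E2A-deficient arrays, against -3.26, -2.63 and -3.35 on the wild-type arrays. Xist, the RNA of the inactive X chromosome, read 1901, 1247 and 2154 on the E2A-deficient arrays, against 3055, 4456 and 58.7 on the wild-type arrays, so wild-type replicate 3 stood apart from the other arrays in this sex-linked gene. Of the DN2 markers, Kit, Cd44, Il2ra and Cd24a lay above the upper quartile of every array and did not pass the test. Thy1, a surface marker of T cells, fell by 1.32 on the log2 scale (limma adjusted p = 0.00257) and Gata3, a T-lineage regulator, rose by 1.45 (limma adjusted p = 0.00346). Cd4, Cd8a and Cd8b1 lay below the upper quartile on each of the 6 arrays.

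Among the receptor chains, Il18r1 rose in E2A-deficient cells and no other measured chain passed the test. Il18r1, the ligand-binding chain of the IL-18 receptor, was 1.42-fold higher. That size is uncertain, because each wild-type value lay just below the median of its array. The other 12 probe sets changed by -0.37 (Il7r) to 0.25 (Il2ra) and did not pass, and of these the unadjusted interval of Il17rb lay below 0 and the others held 0. The changes below are E2A deficient minus wild type in log2(intensity + 1), where 1 is added to every intensity. A probe set was called when its p-value from limma, adjusted by Benjamini and Hochberg over 45037 probe sets, was under 0.05. Of the 13 probe sets 1 was called, and it was higher. Of all probe sets 1.79% were called, 1.21% higher and 0.58% lower, beside which the 13 probe sets held 1 call. The median change of the 13 was -0.0011 and that of all probe sets was 0.0039.

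**Figure D1:**
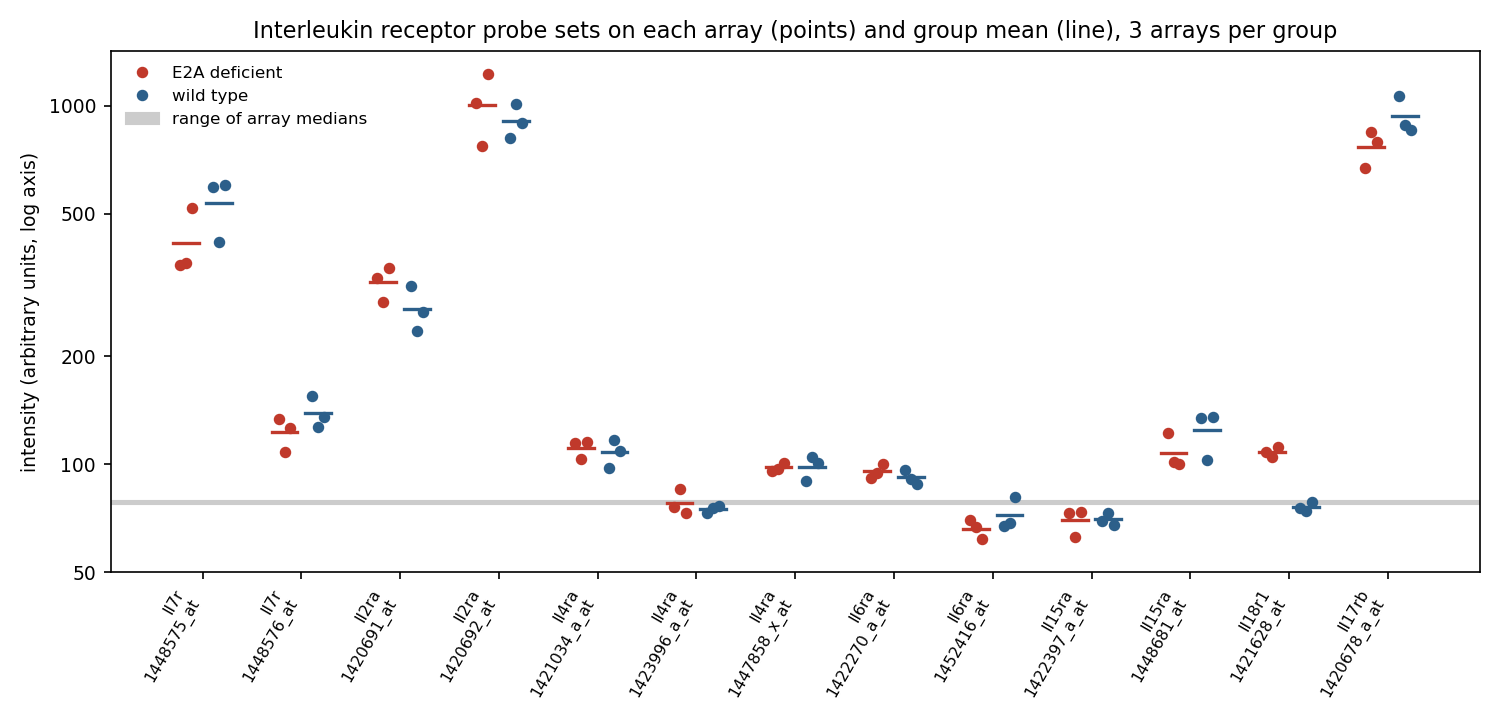
Intensity of each of the 13 probe sets on a log axis, with 1 point per array, E2A deficient in red and wild type in blue, a line at each group mean, and the range of the array medians in grey. The Il18r1 points of E2A-deficient cells, 105 to 112, lie above the wild-type points, 74.4 to 78.3. Each of these wild-type points is just below the median of its own array.

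Il18r1 is the chain on which the result turns, so the sequence upstream of its first listed start is shown. Beside it stand the stretches upstream of the listed starts of Il7r and Il2ra, the chains of the IL-7 and IL-2 receptors. Sequences are from the RefSeq promoter table of build GRCm38.p6, 5' to 3' on the strand of the gene, limited to the part of the 250 bases before the start site that lies in no annotated gene. Capitals mark E-boxes, searched as CANNTG on both strands.
Il18r1, chr1:40465419-40465551, plus strand, bases -133 to -1: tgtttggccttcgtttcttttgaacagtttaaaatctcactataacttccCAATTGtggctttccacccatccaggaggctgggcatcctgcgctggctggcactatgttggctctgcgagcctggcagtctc
Il7r, chr15:9529942-9530126, minus strand, bases -250 to -66: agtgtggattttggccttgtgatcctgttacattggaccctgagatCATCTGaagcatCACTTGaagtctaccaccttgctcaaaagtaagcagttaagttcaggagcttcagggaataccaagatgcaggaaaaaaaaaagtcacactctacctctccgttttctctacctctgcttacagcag
Il2ra, chr2:11642542-11642791, plus strand, bases -250 to -1: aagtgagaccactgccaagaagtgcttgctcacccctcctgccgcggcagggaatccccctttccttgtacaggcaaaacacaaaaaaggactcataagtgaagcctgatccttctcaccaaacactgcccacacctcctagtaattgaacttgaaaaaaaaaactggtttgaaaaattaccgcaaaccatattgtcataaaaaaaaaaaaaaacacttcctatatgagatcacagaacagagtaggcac
These stretches hold 1, 2 and 0 E-boxes. The rest of the Il18r1 upstream window lies inside the annotated Il1rl1 gene, its neighbour on chromosome 1. The rest of the Il7r upstream window lies inside the annotated Il7r gene itself and holds a further E-box at -34.

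Whole windows of 300 bases, 250 before and 50 after the start, were counted for all 10 chains, which have 14 windows in the table. The 3 Il18r1 windows, of which the first and second overlap, held 2, 2 and 1 E-boxes, and Il7r held 3, Il17rb 2, Il4ra 1, Il6ra 4 and Il2ra 0. The 2 Il15ra windows held 2 and 3. Of the chains without a probe set, the Il1rl1 windows held 2 and 1, that of Il23r 2 and that of Il2rg 0. Of 32851 such windows 72.3% held at least 1 E-box, and 17.6% held at least 3. The form CAGGTG, counted together with its reverse complement CACCTG, was in 20.2% of windows and occurred 2 times in that of Il17rb. It occurred 1 time in the second and in the third Il18r1 window, in 1 window of Il15ra and in that of Il6ra. The form CAGCTG was in 16.3%, among them 1 window of Il15ra and that of Il4ra. These counts describe letters in the windows, and binding was not measured.

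Il18r1 was read by a single probe set (1421628_at). It gave 108, 105 and 112 in E2A-deficient cells and 75.7, 74.4 and 78.3 in wild-type cells. Every E2A-deficient array lay above every wild-type array, and the spread within each group was small, with means of 109 ± 3.55 and 76.1 ± 2.03 (SD, n = 3 each). The change was 0.51 (SE 0.0547, 95% interval 0.38 to 0.63, limma adjusted p = 0.00636). Each wild-type intensity lay just below the median of its array, which was 78.8, 77.4 and 79.0. Without detection calls Il18r1 is not shown to be above background there, so the size of this change is uncertain. The call held with any 1 array left out, where the change was 0.48 to 0.53 and the limma adjusted p 0.0210 to 0.0353. Without wild-type replicate 3, which stood apart in Xist, it was 0.53 (limma adjusted p = 0.0210). Adding the beta-actin ratio to the fit gave a change of 0.54 that missed the threshold (limma adjusted p = 0.0767). Over the 18 alternatives tried for this probe set, limma adjusted p-values ran from 0.00170 to 0.0767.

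Il18rap, the accessory chain that Il18r1 needs to signal, was looked at for that reason. The brighter of its 2 probe sets read 92.8, 107 and 105 in E2A-deficient cells and 81.8, 79.8 and 85.5 in wild-type cells. The groups did not overlap, but the change of 0.30 (95% interval 0.13 to 0.46) did not pass (limma adjusted p = 0.110). Il18rap lies next to Il18r1 on chromosome 1. The other IL-1 receptor genes measured there changed by -0.0036 (Il1r1, the IL-1 receptor), 0.099 (Il1rl2, the IL-36 receptor) and -0.0080 (Il1r2, a decoy receptor), and none passed. Il18 itself, the ligand, changed by -0.12 and did not pass (limma adjusted p = 0.591).

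Il7r was read by 2 probe sets, and both averaged lower in E2A-deficient cells without passing. The brighter (1448575_at) gave 361, 365 and 518 in E2A-deficient cells and 592, 416 and 601 in wild-type cells. The groups overlapped, because E2A-deficient replicate 3 lay above wild-type replicate 2. The change was -0.37 with a wide 95% interval of -0.81 to 0.063 (SE 0.186, limma adjusted p = 0.499). The dimmer one (1448576_at) gave 134, 108 and 126 in E2A-deficient cells and 155, 127 and 136 in wild-type cells, a change of -0.18 (95% interval -0.42 to 0.058, limma adjusted p = 0.576). It was -0.095 without E2A-deficient replicate 2 and -0.10 without wild-type replicate 1. When the beta-actin ratio was added to the fit the changes were -0.011 and -0.084. In wild-type cells the 2 arrays with the lower beta-actin ratio, replicates 1 and 3, were also the higher in both Il7r probe sets. In E2A-deficient cells the array with the lowest ratio, replicate 3, was the highest in the brighter probe set but not in the dimmer. The part of RNA quality in the difference was not tested. Crlf2, which joins Il7r in the receptor for TSLP, gave 332 to 343 in E2A-deficient and 299 to 330 in wild-type cells (0.086, limma adjusted p = 0.690).

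Il2ra, the CD25 chain of the IL-2 receptor by which this stage is recognised, also had 2 probe sets. The brighter (1420692_at) gave 1016, 773 and 1225 in E2A-deficient cells and 813, 1007 and 897 in wild-type cells. E2A-deficient arrays were both the highest and the lowest of the 6, and the change was 0.13 (95% interval -0.25 to 0.51, limma adjusted p = 0.869). The dimmer (1420691_at) gave 331, 284 and 352 in E2A-deficient cells and 315, 235 and 265 in wild-type cells, a change of 0.25 (95% interval -0.036 to 0.54, limma adjusted p = 0.483). Il2rb, the beta chain shared by the IL-2 and IL-15 receptors, changed by -0.032 in the brighter of its 2 probe sets. That probe set read 74.0 to 78.7 in E2A-deficient and 77.4 to 80.4 in wild-type cells, which is the level of the array medians. Il15ra, which binds IL-15 and presents it to neighbouring cells, gave 122, 101 and 100 in E2A-deficient cells and 135, 103 and 136 in wild-type cells in its brighter probe set (1448681_at). Its change of -0.20 (95% interval -0.50 to 0.097) did not pass, and it was 0.0061 when the beta-actin ratio was added. Its other probe set (1422397_a_at) changed by -0.012, with all 6 arrays between 62.7 and 73.6.

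Il17rb, which together with Il17ra forms the IL-25 receptor, was the other chain whose groups did not overlap. It read 669, 842 and 790 in E2A-deficient cells and 1066, 885 and 857 in wild-type cells. The highest E2A-deficient array and the lowest wild-type array were nearly equal. The change was -0.29 (SE 0.114, 95% interval -0.55 to -0.020), with an unadjusted p of 0.0382 that did not pass after adjustment (limma adjusted p = 0.353). Without wild-type replicate 1 the change was -0.19 (unadjusted p = 0.117 by limma), and without E2A-deficient replicate 1 it was also -0.19 (unadjusted p = 0.124 by limma). With quantile normalization it was -0.40, the largest fall among the 17 alternatives tried for this probe set. None of these passed (limma adjusted p 0.136 to 0.874). The interval is that of this probe set alone and takes no account of the number tested. Of all probe sets 16.9% had groups that did not overlap, against 2 of these 13, Il18r1 and Il17rb. Il17ra, the shared chain, gave 329 to 398 in E2A-deficient and 320 to 368 in wild-type cells, a change of 0.064 (limma adjusted p = 0.888).

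**Figure D2:**
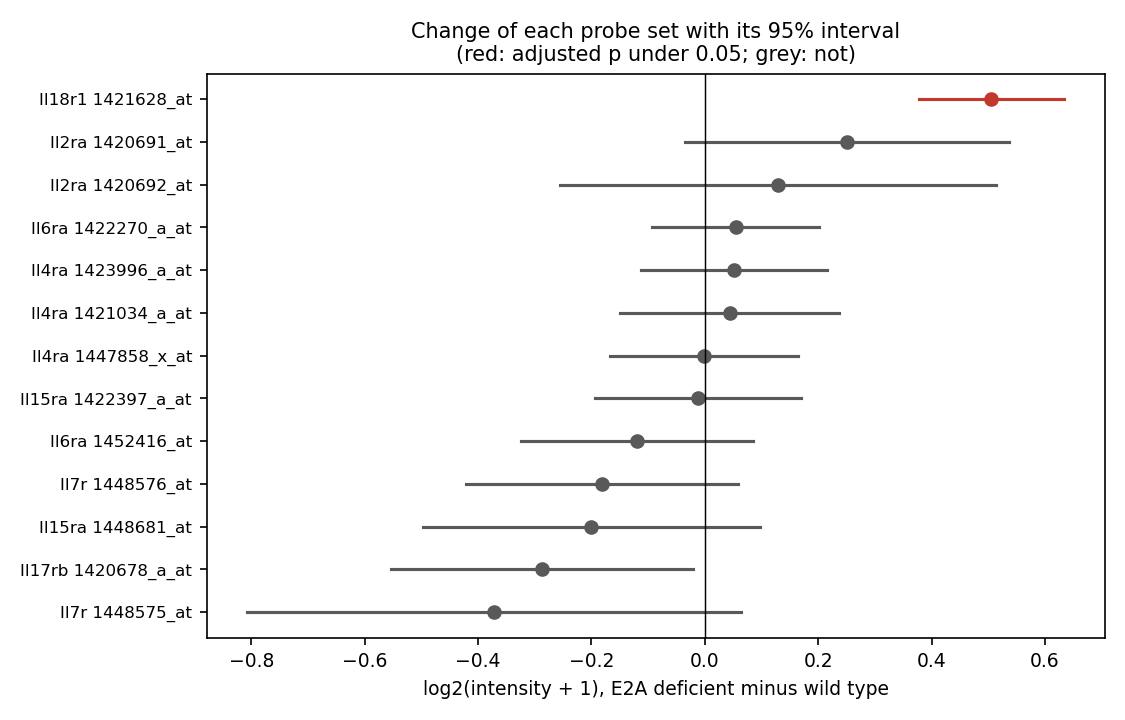
Log2 change of each probe set, E2A deficient minus wild type, with its unadjusted 95% interval; points left of 0 are lower in E2A-deficient cells. Il18r1, in red, was the probe set with an adjusted p under 0.05, and the Il7r probe set at -0.37 has the widest interval.

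Il4ra, the chain that binds IL-4 and takes part in the IL-13 receptor, was read by 3 probe sets. The brightest (1421034_a_at) gave 114, 103 and 116 in E2A-deficient cells and 97.8, 117 and 109 in wild-type cells. The groups overlapped throughout, and the changes of the 3 were 0.044, 0.052 and -0.0011, with 95% intervals that together ran from -0.17 to 0.24. Il6ra, which binds IL-6 and signals through gp130, gave 91.5, 94.7 and 100.5 in E2A-deficient cells against 96.6, 91.4 and 88.1 in wild-type cells in its brighter probe set (1422270_a_at). Its change was 0.054 (95% interval -0.093 to 0.20), and that of the dimmer (1452416_at) was -0.12 (95% interval -0.32 to 0.085), or -0.035 without wild-type replicate 3. Limma adjusted p-values of these 5 probe sets lay between 0.709 and 0.999. Il6st, which encodes gp130, was read by the brightest of its 4 probe sets. It gave 118, 139 and 150 in E2A-deficient cells and 166, 179 and 154 in wild-type cells, a change of -0.30 that did not pass (limma adjusted p = 0.255).

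The other genes of these pathways were counted once per gene, by the brightest probe set. Over all 18193 genes read this way 1.92% were called higher and 0.901% lower, the median change was 0.015, and 2942 had an unadjusted p under 0.05. By limma 0 of 34 further interleukin receptor chains were called, and before adjustment 6 had a p under 0.05. Their median change was 0.0034. The 2 with the smallest p were Il17rd, a membrane protein of the IL-17 receptor family (0.48, limma adjusted p = 0.0592), and Il20ra, a chain of the IL-20 receptor (0.28, limma adjusted p = 0.0748). In both the E2A-deficient arrays lay above the wild-type arrays, and Il17rd read 81.7 to 90.9 in E2A-deficient and 53.3 to 67.2 in wild-type cells. Of these 34 chains 30 lay below the upper quartile of intensity on all 6 arrays.

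Of the 15 ligands 1 was called. Il4, which signals through Il4ra, gave 173, 124 and 142 in E2A-deficient cells and 69.3, 64.8 and 68.4 in wild-type cells. The groups did not overlap, and the change was 1.09 (SE 0.114, limma adjusted p = 0.00519). The wild-type arrays lay below their array medians, and without detection calls Il4 is not shown to be above background there, so the size of this change is uncertain. The ligands as a list had a median change of 0.016, and 13 of them lay below the upper quartile on every array, among them Il7, Il33 and Il25. Il7, the ligand of Il7r, read 55.2 to 57.4 in E2A-deficient and 51.9 to 60.2 in wild-type cells.

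Kinases and STAT factors held 3 calls among 10 measured genes, 2 higher and 1 lower, with a median change of 0.22, and 8 of the 10 had an unadjusted p under 0.05. Jak2, a kinase used by IL-23 and many other cytokine receptors, gave 726, 702 and 844 in E2A-deficient cells and 464, 476 and 540 in wild-type cells, a change of 0.62 (limma adjusted p = 0.0235). Its dimmer probe set gave 0.28 and did not pass. Tyk2, the partner of Jak2 at the IL-23 receptor, gave 264, 302 and 278 in E2A-deficient cells and 191, 202 and 211 in wild-type cells, a change of 0.48 (limma adjusted p = 0.0233), and its dimmer probe set gave -0.043. Stat4, which acts below the IL-12 receptor, fell to 93.2, 93.4 and 111 in E2A-deficient cells, against 159, 154 and 155 in wild-type cells (-0.65, limma adjusted p = 0.00949). Every E2A-deficient array lay on one side of every wild-type array in all 3 of these genes. The kinases of the IL-7 receptor, Jak1 (-0.045) and Jak3 (0.29), did not pass, nor did its STAT factors Stat5a (-0.33) and Stat5b (-0.086).

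Limma called 0 of 12 inhibitors of receptor signalling, 4 had an unadjusted p under 0.05, and their median change was 0.045. The smallest p-values belonged to Socs2 (-0.38, limma adjusted p = 0.226) and to Cish (0.18, limma adjusted p = 0.310), both of which STAT5 is known to induce. Limma likewise called 0 of 9 genes of IL-1 and IL-17 receptor signalling, where 2 had an unadjusted p under 0.05 and the median change was 0.045. These 2 were the IL-17 receptor adaptor Traf3ip2 (0.29, limma adjusted p = 0.263) and Tab2, a subunit of the TAK1 kinase complex (0.17, limma adjusted p = 0.317). Of 12 survival and growth genes downstream of the common gamma chain 5 had an unadjusted p under 0.05 and 1 rose, and the median change was 0.14. It was Bcl2l11, which encodes the pro-apoptotic protein BIM, at 344, 303 and 293 in E2A-deficient cells against 227, 208 and 209 in wild-type cells (0.54, limma adjusted p = 0.0197). Its other 4 probe sets changed by 0.085 to 0.15 and did not pass. Bcl2, the survival gene that IL-7 is known to maintain, ran from 221 to 423 in E2A-deficient and from 319 to 424 in wild-type cells (-0.17, limma adjusted p = 0.879).

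**Figure D3:**
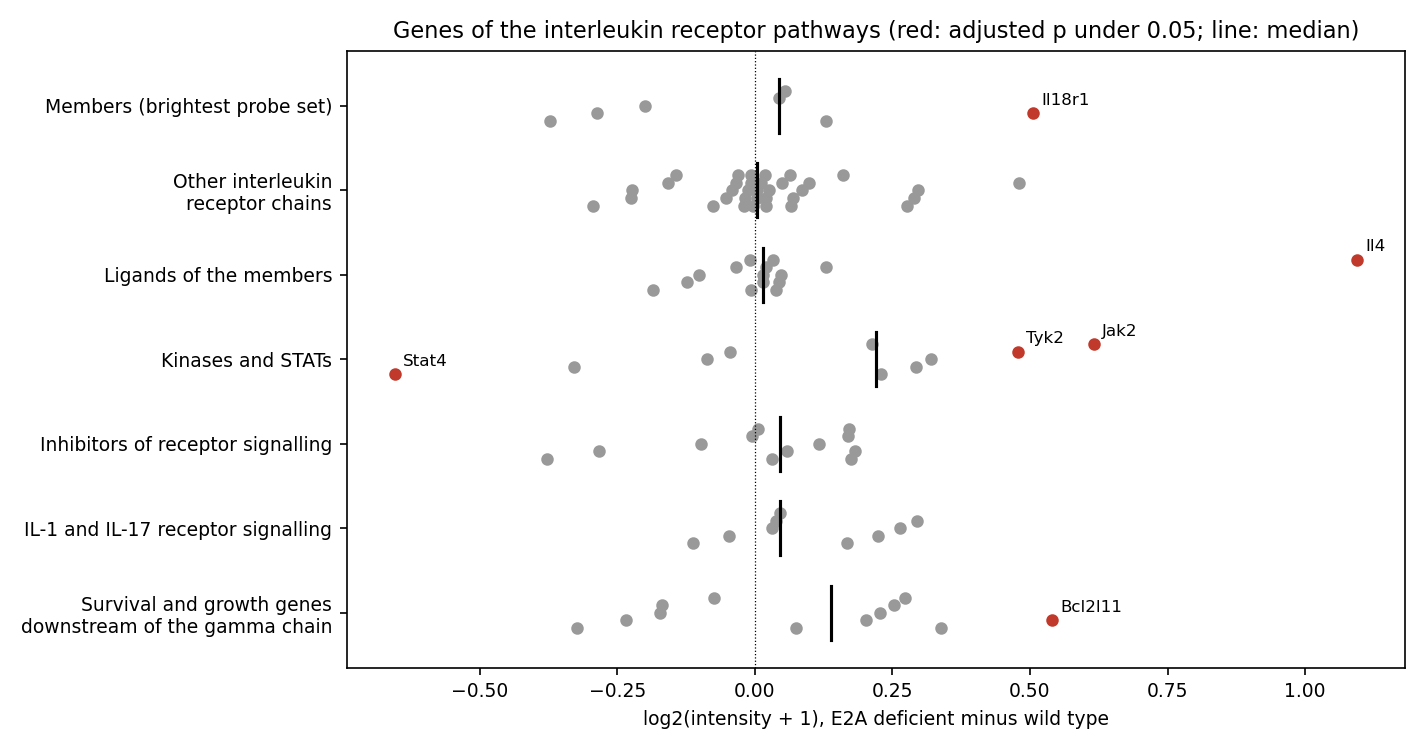
Log2 change of each gene by its brightest probe set, with the 7 measured chains in the top row and the pathway lists below, called genes in red with their names, and a line at each median. Il4 is drawn at 1.09, a size that is uncertain because its wild-type arrays lay below the array medians, and Stat4 at -0.65.

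Il18r1 is also expressed by NK cells, innate lymphoid cells and other lymphocytes, so the markers of cells that a sort could include were set beside it. Limma called 0 of 5 NK markers, 0 reached an unadjusted p under 0.05, and their summed intensity was 338 to 364 in E2A-deficient and 336 to 361 in wild-type cells. All 5 NK markers lay below the upper quartile on every array. Of 5 markers of type 2 innate lymphoid cells 2 had an unadjusted p under 0.05 and 1 rose, Rora, a nuclear receptor (2.16), and the sum was 589 to 664 in E2A-deficient and 348 to 370 in wild-type cells. Within that sum Rora alone read 283 to 372 in E2A-deficient and 67.0 to 77.1 in wild-type cells. The other 4 markers, Klrg1, Il5, Il13 and Ptgdr2, lay below the upper quartile on every array. Among them Klrg1, an inhibitory receptor also found on NK cells, read 97.7, 91.1 and 82.5 in E2A-deficient cells and 73.8, 67.5 and 77.2 in wild-type cells. Its groups did not overlap, and the change of 0.31 (unadjusted p = 0.00661) did not pass (limma adjusted p = 0.149). Il5, Il13 and Ptgdr2 changed by -0.033, 0.048 and -0.051, and none of them passed. Of 3 markers of type 3 innate lymphoid and IL-17 producing cells 1 rose, the chemokine receptor Ccr6 (1.66), and the sum was 363 to 513 in E2A-deficient and 206 to 239 in wild-type cells. Within that sum Ccr6 alone read 227 to 374 in E2A-deficient and 75.8 to 108 in wild-type cells. The other 2, Il17a and Ncr1, lay below the upper quartile on every array. Among markers of regulatory T cells 1 of 3 rose, Ikzf2 (1.05), while Foxp3 changed by -0.037. Their sum was 1407 to 1609 in E2A-deficient and 723 to 869 in wild-type cells. Most of it was Ikzf2, at 1270 to 1473 in E2A-deficient and 584 to 735 in wild-type cells. The other 2 regulatory T-cell markers lay below the upper quartile on every array.

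Limma called 0 of 6 mast-cell and basophil markers and 0 of 5 B-lineage markers, with 0 at an unadjusted p under 0.05 in either list. It called 0 of 5 thymic epithelial markers, of which 1 had an unadjusted p under 0.05. Changes in the epithelial list ran from -0.029 to 0.46. The mast-cell sum was 1273 to 1677 in E2A-deficient and 1384 to 1490 in wild-type cells. Most of it was Cpa3, at 919 to 1324 in E2A-deficient and 1021 to 1155 in wild-type cells. The other 5 mast-cell and basophil markers lay below the upper quartile on every array. The B-lineage sum was 383 to 404 in E2A-deficient and 388 to 428 in wild-type cells, and the epithelial sum 466 to 508 in E2A-deficient and 424 to 455 in wild-type cells. In each of these 2 lists 4 of the 5 markers lay below the upper quartile on every array. Of 7 myeloid markers 1 fell, the lysozyme gene Lyz2 (-0.50), with sums of 1408 to 1646 in E2A-deficient and 1294 to 1546 in wild-type cells. Of these markers 6 lay below the upper quartile on every array. Of 4 genes of later T-cell stages 1 fell, Cd5 (-0.70), with sums of 309 to 314 in E2A-deficient and 339 to 378 in wild-type cells. The part of other cells in the Il18r1 result was not tested, and in sorted bulk RNA a different number of cells and a different amount of RNA per cell cannot be told apart.

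**Figure D4:**
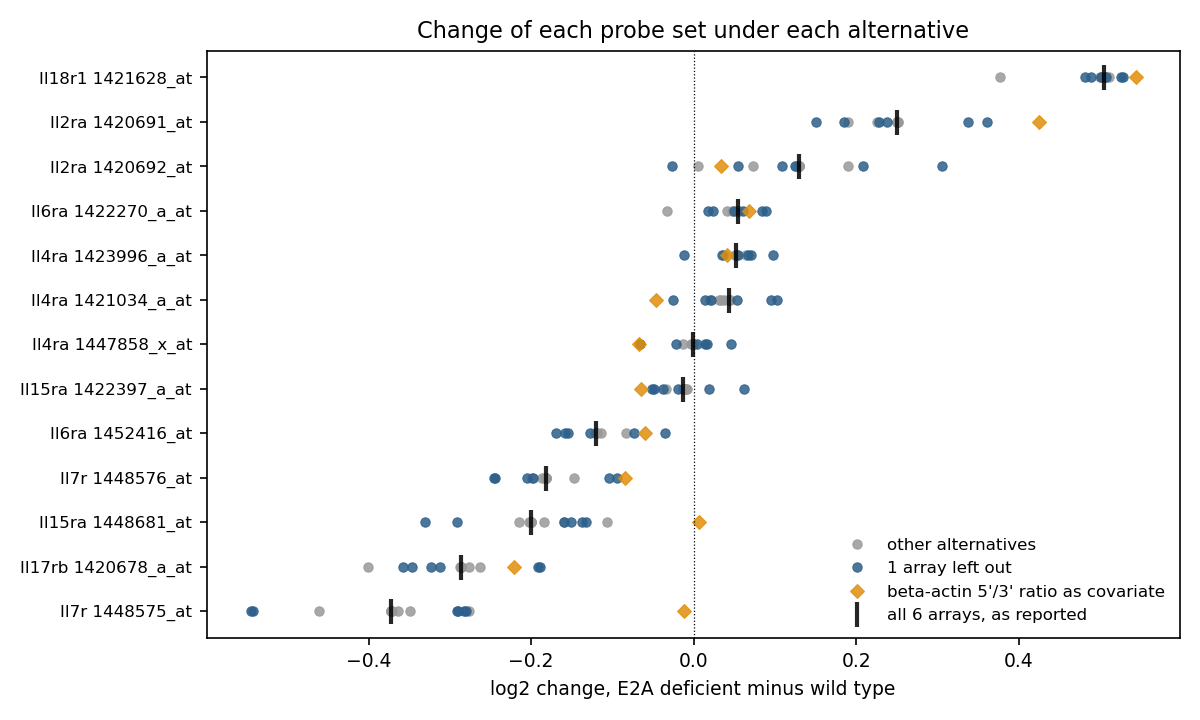
Log2 change of each probe set as reported (black line), with 1 array left out (blue), with the beta-actin ratio added to the fit (orange) and under the other alternatives (grey). The Il18r1 values run from 0.38 to 0.54, and the Il7r value at -0.37 moves to -0.011 with that ratio.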

How the data were processed

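Small amounts of RNA from sorted cells were amplified in repeated rounds and hybridised to Affymetrix arrays, per the labels' protocols. The intensity values deposited by the authors are linear, 1 per probe set and array, and RMA is the only tool in the submitters' processing notes. Its version, any further scaling and any filter are not given in the sources used here. Amplification of this kind reads mostly 3' ends.

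After 64 control probe sets were left out, log2(intensity + 1) of 45037 probe sets was fitted in limma 3.58.1 (R 4.3.3), two-sided, adjusted by Benjamini and Hochberg, and p-values under 0.05 were called. The annotation gave 1 gene for 34945 probe sets, several for 932 and none for 9160. Entrez identifiers of 34741 matched RefSeq and 0 symbols changed. The labels do not say that the 3 arrays per group came from separate animals, so the p-values reflect only the spread among these arrays, whose number limits precision. The fit was tested on simulated data. The chains, gene lists and naming rule were chosen with earlier results of these data known. All probe sets of the chains were named. Of each pathway list, up to 6 called genes were named, or the 2 with the smallest p where none was called. Of the cell-type marker lists, the called genes were named, with some others beside them. Il18rap and other partner chains and ligands were named beside their receptors, outside the rule for pathway lists. Each of them was read by its brightest probe set. Listed genes that the annotation did not name were not analysed here. Alternatives were a block for the replicate number, each array left out, quantile normalization, median centring, pseudocounts of 0 and 32, a filter on dim probe sets, robust variances with an intensity trend, array weights, the beta-actin ratio in the fit, no shared probe sets, and 1 value per gene (brightest or mean). Figures were drawn with matplotlib 3.10.9.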

Additional observations from a re-analysis of the deposited data

How the results depend on the processing

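Of 213 refits of single probe sets of the chains, 200 kept their direction and their side of the threshold, 12 turned direction without ever passing, and 1, Il18r1 with the beta-actin ratio added to the fit, no longer passed. That ratio left 0 of the 13 probe sets and 114 of all probe sets called, against 1 and 804 as reported. It also gave -0.046 for the brightest Il4ra probe set and 0.0061 for the brighter Il15ra probe set, and the mean of both Il6ra probe sets gave -0.033. The cause was not tested. Il18r1 was called in each of its other 17 alternatives. Leaving out 1 array gave 358 calls (without E2A-deficient replicate 3) to 563 (without wild-type replicate 1) over all probe sets, and 1 among the chains each time, with fewer samples in each fit. It turned the brighter Il2ra probe set (range -0.026 to 0.31), the Il4ra probe sets (-0.025 to 0.10 for 1421034_a_at, -0.012 to 0.097 for 1423996_a_at and -0.066 to 0.046 for 1447858_x_at) and Il15ra 1422397_a_at (-0.051 to 0.062). The direction held in the others, with ranges of -0.54 to -0.28 for Il7r 1448575_at, -0.25 to -0.095 for Il7r 1448576_at, 0.15 to 0.36 for Il2ra 1420691_at, 0.018 to 0.090 for Il6ra 1422270_a_at, -0.17 to -0.035 for Il6ra 1452416_at, -0.33 to -0.13 for Il15ra 1448681_at and -0.36 to -0.19 for Il17rb. Without probe sets shared between transcripts, which left 36082 to test, 531 were called.

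Arrays with the same replicate number did not deviate together (r = 0.0413, 0.0414 and -0.0360 across probe sets), and not every array correlated best with its own number. With the replicate number as a block 471 probe sets were called, and Il18r1 still passed (limma adjusted p = 0.0336). The changes of dim probe sets depend on the number added before the logarithm: Il18r1 changed by 0.38 with a pseudocount of 32 and by 0.51 with none.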

Other observations

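The 3 protein-coding genes nearest on each side of every chain were looked up in the RefSeq gene order after the values of the chains were seen. Next to Il17rb on chromosome 14 lies Chdh, which encodes choline dehydrogenase. Chdh gave 422, 323 and 464 in E2A-deficient cells and 838, 817 and 847 in wild-type cells, a change of -1.06 (limma adjusted p = 0.00896). Apart from the chains themselves, Chdh was the only gene called among all these neighbours. Over all genes read by their brightest probe set 1.92% were called higher and 0.901% lower. A link between Chdh and Il17rb was not tested. All but 4 of the 250 bases upstream of the Il17rb start lie inside the annotated Chdh gene. The probe set read for it is one shared between transcripts. Il2ra and Il15ra are also neighbours, on chromosome 2, and their brightest probe sets changed by 0.13 and -0.20, neither of which passed.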
